A study of Rattus norvegicus with 12 samples.

Results

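The Myc network is a family of transcription factors of the basic helix-loop-helix leucine zipper class, and 9 of its genes were examined in the rat left ventricle: the activators Myc, Mycn and Mycl, their common partner Max, the repressors Mxd1, Mxd4, Mxi1 and Mnt, and the Max-like factor Mlx. They were chosen by symbol and are 9 of the 34599 genes in the count table. All 9 had enough reads to be among the 15101 genes tested. Total RNA was sequenced from the left ventricle of 12 rats, 4 in each of 3 groups, 1 day after surgery. The study's methods describe the infarct model in male SD rats. Sham rats underwent thoracotomy without ligation of the left anterior descending (LAD) coronary artery. MI rats underwent LAD ligation and received no further treatment. In iCarP+/Light+ rats the LAD was ligated, a suspension of the green alga Chlorella was injected into the infarcted ventricle, the light-guiding patch iCarP was fixed over the infarct with an adhesive gel, and the heart was illuminated. Thoracotomy was shared by all 3 groups. The injection itself, alga, patch, gel and illumination under anesthesia came together in these rats and cannot be told apart. Patch-bearing rats without light were not analysed here.

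Myc, Mycn and Mycl bind DNA only as a pair with Max, at a short motif called the E-box, and switch on genes of ribosome production, nucleotide synthesis and cell growth. The Mxd proteins, Mxi1 and Mnt also pair with Max, occupy the same motif and recruit the Sin3 complex with its histone deacetylases, which silences the bound gene. Mlx is a second hub, which pairs with some Mxd proteins, with Mnt and with the glucose-sensing factors MondoA (Mlxip) and ChREBP (Mlxipl). In the heart, Mycn is known for its part in growth of the embryonic ventricle, Myc is known as an early gene of injury and load, and Mxd1 is known as a gene of maturing cells, among them myeloid cells.

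The E-box is itself found at the start of several genes of the network, and the windows that carry it are shown because they hold the motif that activators and repressors share. RefSeq promoter windows of build GRCr8, from 250 bases before to 50 bases after the start of the gene, were found for 7 of the 9 genes. Myc and Mycn had no entry. The E-box, searched as CACGTG, which reads the same on both strands, occurred in 4 of the 7 windows, those of Max, Mxd4, Mnt and Mlx. Of all 33469 RefSeq windows of the same length, 6.42% held it. Each is printed 5′ to 3′ along its gene with 30 bases on each side and the E-box in capitals. The Max window lay at chr6:101395288-101395353 on the minus strand with the motif beginning at -33 from the start, that of Mxd4 at chr14:80786554-80786619 on the plus strand (-197), that of Mnt at chr10:60197806-60197871 on the plus strand (-123) and that of Mlx at chr10:86519786-86519851 on the plus strand (-70).
Max: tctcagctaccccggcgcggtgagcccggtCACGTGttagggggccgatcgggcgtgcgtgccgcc
Mxd4: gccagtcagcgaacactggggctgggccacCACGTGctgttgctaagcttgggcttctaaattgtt
Mnt: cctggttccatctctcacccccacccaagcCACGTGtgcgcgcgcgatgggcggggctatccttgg
Mlx: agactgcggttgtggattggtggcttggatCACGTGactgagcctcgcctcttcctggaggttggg

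The windows of Mxd1 and Mxi1 are shown as well, because these repressors changed most after patch treatment and their windows held no E-box. Both held the shorter ACGTG, a form of the core of hypoxia response elements, searched on both strands. The other form, GCGTG, was not counted, although the windows of Max and Mycl hold it. ACGTG lies within every E-box, so it occurred in 6 of the 7 windows, outside an E-box in 2 of them, and in 19.3% of all windows. The Mxd1 window lay at chr4:120675162-120675226 on the minus strand, where the printed strand of the gene reads CACGT, beginning at -67, and the opposite strand ACGTG. The Mxi1 window lay at chr1:262348392-262348428 on the plus strand, beginning at -248. The Mycl window held neither CACGTG nor ACGTG. A match of letters is a description of these windows and not evidence of binding.
Mxd1: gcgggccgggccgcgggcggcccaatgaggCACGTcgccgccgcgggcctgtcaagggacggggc
Mxi1: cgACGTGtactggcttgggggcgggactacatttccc

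Libraries held 14064414 to 17136958 reads assigned to genes. The deposited counts are given here as CPM, which is reads of a gene per 1000000 assigned reads, after the TMM scaling of edgeR. 3 counts, the smallest level that a library was taken to show, corresponded to 0.144 to 0.228 CPM, which covers counting error only. Genes of the mitochondrial genome took 22.8% to 28.9% of the counts of Sham rats, 8.52% to 11.5% of those of MI rats and 7.14% to 14.2% of those of treated rats. Cell type markers also differed between the groups. The summed level of 8 cardiomyocyte markers ranged over 43000 to 47850 CPM (Sham), 2684 to 5360 CPM (MI) and 2160 to 6459 CPM (iCarP+/Light+), and none of the 8 was at 0 in any rat. The summed level of 6 neutrophil markers ranged over 6.72 to 12.3 CPM (Sham), 326.5 to 634.3 CPM (MI) and 2203 to 6651 CPM (iCarP+/Light+). In bulk tissue, fewer cells of a type and less RNA per cell cannot be told apart. All genes tested entered the quasi-likelihood test of edgeR, and a gene was called at a Benjamini-Hochberg adjusted p below 0.05. MI rats entered 2 of the 3 comparisons, as did the rats of each other group, so the comparisons were not independent of each other.

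Infarction was accompanied by differences across the network. All 9 genes were called between MI and Sham, 6 higher and 3 lower, and 7 with libraries scaled by total counts alone. Of all genes tested, 30.2% were called higher and 33.6% lower. The higher genes were Myc, Mycl, Max, Mxd1, Mnt and Mlx, and the lower genes were Mycn, Mxd4 and Mxi1. Their median log2 fold change was 0.54, beside -0.06 over all genes tested. Between iCarP+/Light+ and MI, 3 of the 9 genes were called higher, the partner Max and the repressors Mxd1 and Mxi1, where 11.6% of all genes tested were called higher. None of the 9 was called lower, where 2.01% of all genes were. One of them, Myc, was lower at an unadjusted p below 0.05, and the counts of members called lower were 1 with DESeq2 and 0 with limma-voom. The median of the 9 genes was 0.11, beside 0.01 for all genes. Between iCarP+/Light+ and Sham, 7 of the 9 were called higher and 2, Mycn and Mxd4, lower, where 33.5% of all genes were called higher and 33% lower.

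**Figure D1:**
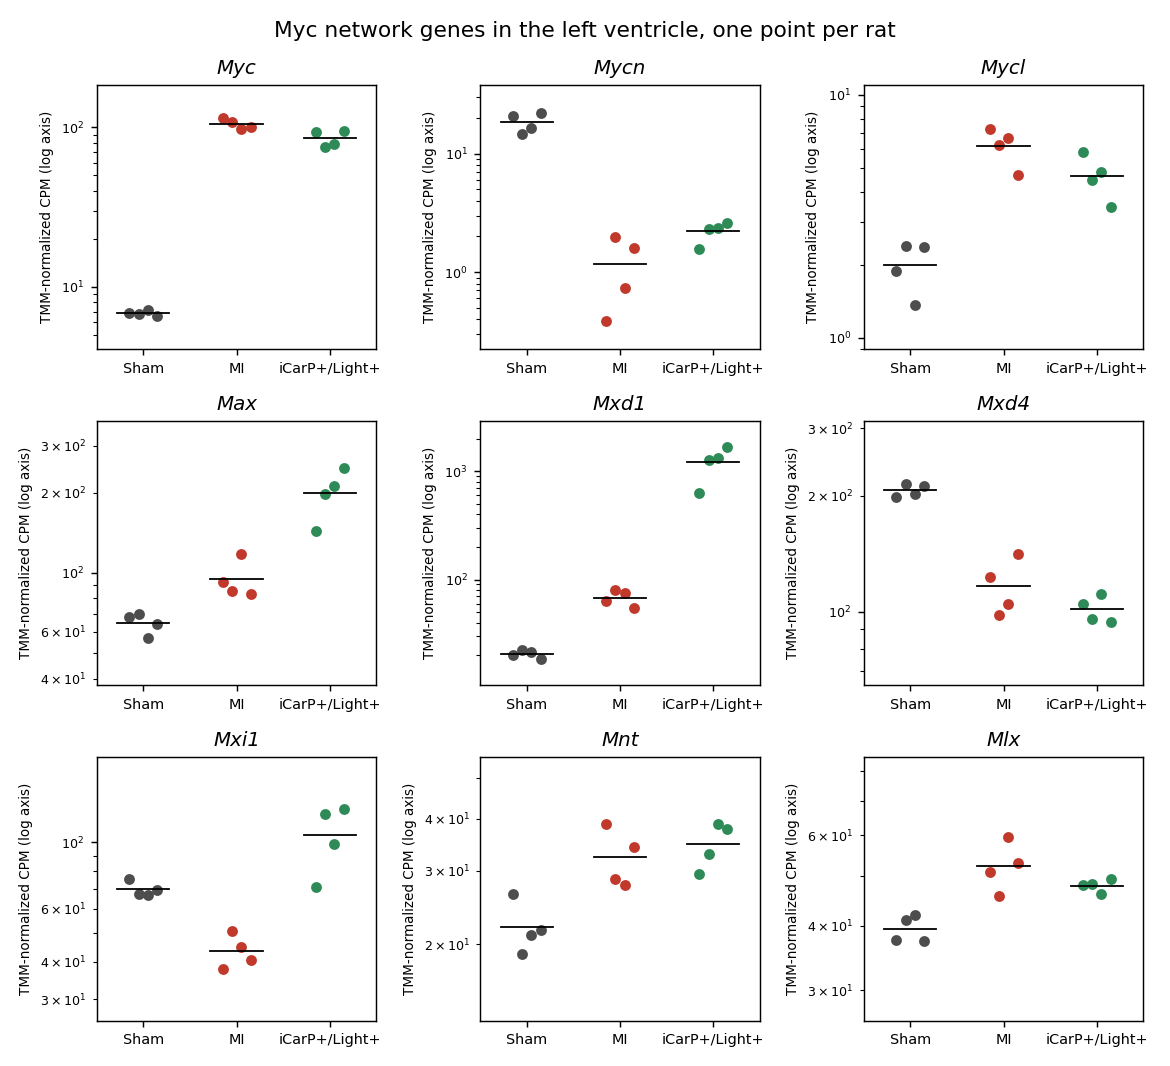
TMM-normalized CPM (log axis) of the 9 Myc network genes in each of the 12 rats, with a point per rat and a line at the mean of each group of 4. Myc sits at 6.56 to 7.14 in Sham and 97.4 to 114.3 in MI rats, and Mxd1 at 54.2 to 80.4 in MI rats and 625.2 to 1674 in treated rats.

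Among the activators, Myc (ENSRNOG00000004500, chr7:102586313-102591240, plus strand, build rn6 as for all genes below), a general driver of growth genes, was higher after infarction in every rat. It was at 6.87, 6.76, 7.14 and 6.56 CPM in the 4 Sham rats. It was at 114.3, 107.5, 97.4 and 100.5 CPM in the 4 MI rats. The groups were far apart and each was narrow. Myc rose 15.4-fold in MI against Sham (log2 fold change 3.94 ± 0.115 (SE), adjusted p = 7.43e-10 in edgeR), which was the smallest p-value of all 15101 genes tested, while 344 other genes had a larger log2 fold change. In the 4 iCarP+/Light+ rats Myc was at 93.3, 75.5, 78.5 and 94.3 CPM. All 4 were below the lowest MI rat and above every Sham rat. The log2 fold change against MI was -0.30 ± 0.099 (SE), with a 95% confidence interval of -0.51 to -0.08 and an adjusted p of 0.0672 in edgeR, so this difference was not called. It was called when any of 3 single rats was left out (MI rat 4, adjusted p = 0.0497; iCarP+/Light+ rat 1, 0.0426; iCarP+/Light+ rat 5, 0.0262, all in edgeR) and in 5 of 10 other settings. Against Sham, Myc was 12.5-fold higher in iCarP+/Light+ rats (log2 fold change 3.64 ± 0.114 (SE), adjusted p = 1.77e-09 in edgeR), again the smallest p-value of all genes. The summed monocyte and macrophage markers also had their lowest mean in Sham and their highest in MI. The means were 228.2, 1036 and 860.9 CPM in Sham, MI and iCarP+/Light+ rats. Cd68, Csf1r and Mrc1 had that order, while Cd14 (169.2 and 272.6 CPM in MI and treated rats) and Adgre1 (19.7 and 44.9 CPM) were highest in treated rats. Within MI, rat 1 was highest in both the sum and Myc, while rat 3 had the lowest sum, 714.7 CPM, and the second highest Myc. Within the treated group, rat 5 was highest and rat 1 next in both, while rats 2 and 4 were in the opposite order. The part of these cells in the levels of Myc was not tested.

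Mycn (ENSRNOG00000051372, chr6:38222555-38228379, minus strand), the paralog prominent in the embryonic heart, went the other way. It was at 20.7, 14.6, 16.6 and 22.2 CPM in Sham rats, above Myc in every Sham rat. It was at 0.383, 2.00, 0.727 and 1.60 CPM in MI rats, from 8 to 37 counts, and at 1.57, 2.30, 2.37 and 2.60 CPM in iCarP+/Light+ rats. Every Sham rat was above every rat of the other groups, while MI and iCarP+/Light+ rats overlapped. Mycn was 15.7-fold lower in MI than in Sham (log2 fold change -3.98 ± 0.393 (SE), adjusted p = 2e-06 in edgeR) and 8.37-fold lower in iCarP+/Light+ than in Sham (-3.07 ± 0.374, adjusted p = 1.02e-05). Between iCarP+/Light+ and MI its log2 difference was 0.91 ± 0.39 (SE), with a 95% confidence interval of 0.07 to 1.76 and an adjusted p of 0.16. All 8 cardiomyocyte markers were lower in MI than in Sham as well, with a median log2 fold change of -3.27, and none of them was called between iCarP+/Light+ and MI. In Sham rats 1, 2, 3 and 5 the marker sum was 46230, 47850, 46970 and 43000 CPM, the reverse order of Mycn. In treated rats 1, 2, 4 and 5 it was 6459, 5134, 3022 and 2160 CPM, again the reverse order. Within MI, rat 1 was lowest and rat 3 highest in both, while rats 4 and 5 were in the opposite order. Markers of other cells were lower in MI than in Sham too, 5 of 6 of fibroblasts (median -1.98), 5 of 5 of endothelial cells (-1.05) and 5 of 5 of red blood cells (-1.04). The part of these cells in the fall of Mycn was not tested.

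Mycl (ENSRNOG00000014259, chr5:140692779-140698609, plus strand) was the least abundant activator in Sham. It was at 1.88, 2.39, 1.37 and 2.36 CPM in Sham rats, at 7.23, 6.20, 6.66 and 4.68 CPM in MI rats and at 5.82, 4.47, 4.81 and 3.45 CPM in iCarP+/Light+ rats. Sham rats were below all others, and the infarcted groups overlapped. Mycl rose 3.09-fold in MI against Sham (log2 fold change 1.63 ± 0.244 (SE), adjusted p = 6.88e-05 in edgeR). Its log2 difference between iCarP+/Light+ and MI was -0.42 ± 0.232 (SE, adjusted p = 0.29).

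Max (ENSRNOG00000008049, chr6:99984260-100011388, minus strand), which both activators and repressors need for DNA binding, was higher in each step. It was at 68.0, 70.1, 57.0 and 64.4 CPM in Sham rats, at 92.4, 85.2, 117.5 and 83.3 CPM in MI rats and at 143.3, 197.5, 210.8 and 247.0 CPM in iCarP+/Light+ rats. No group overlapped another. Max was 1.46-fold higher in MI than in Sham (log2 fold change 0.54 ± 0.163 (SE), adjusted p = 0.0102 in edgeR). It was 2.11-fold higher in iCarP+/Light+ than in MI (1.08 ± 0.163, adjusted p = 0.000626). The neutrophil marker sums had the same order of groups, with means of 9.83, 466.7 and 4589 CPM in Sham, MI and iCarP+/Light+ rats. Treated rat 1 was lowest and rat 5 highest in both, and MI rat 4 was highest in both, while the remaining rats of these groups were not in the same order. The Sham rat with the highest sum, rat 3, had the lowest Max. The part of these cells in the levels of Max was not tested.

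Among the repressors, Mxd1 (ENSRNOG00000017720, chr4:118449882-118472179, minus strand), an antagonist of Myc in maturing cells, had the largest change of the network after patch treatment. It was at 20.0, 22.3, 21.6 and 18.6 CPM in Sham rats and at 63.0, 80.4, 74.5 and 54.2 CPM in MI rats. It was at 625.2, 1283, 1315 and 1674 CPM in iCarP+/Light+ rats. The lowest treated rat was far above the highest MI rat, and the treated rats were the most spread, with an SD of 436.8 CPM beside 11.7 CPM in MI and 1.67 CPM in Sham (n = 4). Mxd1 rose 3.30-fold in MI against Sham (log2 fold change 1.72 ± 0.246 (SE), adjusted p = 4.46e-05 in edgeR) and was 18.0-fold higher in iCarP+/Light+ than in MI (4.17 ± 0.267, adjusted p = 1.77e-06). The latter had the seventh smallest p-value and the 93rd largest log2 fold change among the 15101 genes. Against Sham, Mxd1 was 59.3-fold higher (5.89 ± 0.291, adjusted p = 1.27e-08). Rat 1 of the iCarP+/Light+ group was the lowest of the 4 treated rats for Mxd1, Max and Mxi1, and without it the log2 fold changes against MI were 4.39, 1.21 and 1.43.

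The neutrophil markers moved with Mxd1 over the groups. All 6 were higher in MI than in Sham and in iCarP+/Light+ than in MI, with median log2 fold changes of 5.24 and 3.22. Their summed levels in the treated rats 1, 2, 4 and 5 were 2203, 5541, 3964 and 6651 CPM, with the lowest in rat 1 and the highest in rat 5, as for Mxd1, while rats 2 and 4 were in the opposite order. In the MI rats 1, 3, 4 and 5 they were 398.6, 326.5, 634.3 and 507.5 CPM, lowest in rat 3, which had the most Mxd1 of that group. Among 5 monocyte and macrophage markers, 4 were called higher in MI than in Sham, while 1 was called higher and 1 lower in iCarP+/Light+ than in MI, and their sums were 208.6 to 279.3, 714.7 to 1420 and 674.5 to 1052 CPM in the 3 groups. The part of these cells in the levels of Mxd1 was not tested.

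Mxi1 (ENSRNOG00000034078, chr1:274030978-274090071, plus strand), a repressor of the same subfamily, fell after infarction and was higher with treatment. It was at 75.5, 67.3, 66.7 and 69.5 CPM in Sham rats, at 37.9, 50.7, 44.8 and 40.7 CPM in MI rats and at 71.1, 123.5, 98.4 and 129.1 CPM in iCarP+/Light+ rats. MI rats were below all others, and rat 1 of the treated group lay within the range of Sham. The mean summed level of 5 red blood cell markers had the same order over the groups, with ranges of 7861 to 10560 CPM (Sham), 2503 to 6925 CPM (MI) and 6181 to 17450 CPM (iCarP+/Light+), with 5 of 5 called lower in MI than in Sham and 4 of 5 higher in iCarP+/Light+ than in MI. Within the treated group the order was not that of Mxi1, since rat 2 had the lowest sum, 6181 CPM, and the second highest Mxi1, and rat 1 had 10840 CPM and the lowest Mxi1. The neutrophil marker sums of treated rats 1, 2, 4 and 5, at 2203, 5541, 3964 and 6651 CPM, had the order of Mxi1. They were higher than in MI, as Mxi1 was, but from Sham to MI they moved the opposite way to Mxi1, and within MI rat 3 had the lowest sum, 326.5 CPM, and the highest Mxi1. The part of these cells in the levels of Mxi1 was not tested. Mxi1 was 1.60-fold lower in MI than in Sham (log2 fold change -0.68 ± 0.166 (SE), adjusted p = 0.00287 in edgeR) and 2.42-fold higher in iCarP+/Light+ than in MI (1.28 ± 0.167, adjusted p = 0.000211). Against Sham the treated rats were 1.51-fold higher (0.60 ± 0.165, adjusted p = 0.00603). When only total counts set the scale, the difference between MI and Sham was -0.10 on the log2 scale (adjusted p = 0.559 in edgeR), where the median of all genes was at 0.52, so relative to that median it was -0.62.

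Mxd4 (ENSRNOG00000015033, chr14:81819415-81833456, plus strand) was the repressor with the highest level in Sham. It was at 199.0, 214.9, 202.8 and 212.2 CPM in Sham rats, at 122.7, 98.0, 104.8 and 141.1 CPM in MI rats and at 104.9, 95.7, 111.0 and 94.0 CPM in iCarP+/Light+ rats. Sham rats were above all others, and the infarcted groups overlapped. Mxd4 was 1.78-fold lower in MI than in Sham (log2 fold change -0.83 ± 0.12 (SE), adjusted p = 5.06e-05 in edgeR), a call lost with total counts alone (-0.25, adjusted p = 0.136, or -0.77 after subtracting the all-gene median). Its log2 difference between iCarP+/Light+ and MI was -0.20 ± 0.119 (SE, adjusted p = 0.325), with a 95% confidence interval of -0.46 to 0.06.

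Mnt (ENSRNOG00000002894, chr10:61685241-61700491, plus strand), the repressor expressed in most dividing and resting cells, was modestly higher after infarction. It was at 26.4, 19.0, 21.0 and 21.6 CPM in Sham rats, at 38.8, 28.7, 27.7 and 34.2 CPM in MI rats and at 29.4, 33.0, 38.9 and 37.9 CPM in iCarP+/Light+ rats. Mnt was 1.47-fold higher in MI than in Sham (log2 fold change 0.56 ± 0.144 (SE), adjusted p = 0.00436 in edgeR). Between iCarP+/Light+ and MI the log2 difference was 0.11 ± 0.143 (SE, adjusted p = 0.705), with a 95% confidence interval of -0.20 to 0.41. Its sign turned without iCarP+/Light+ rat 5 (-0.014) and with total counts alone (-0.17). With total counts the median of all genes was -0.25, and relative to that median Mnt was at 0.085.

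Mlx (ENSRNOG00000019983, chr10:88997399-89002152, plus strand), the hub of the glucose-sensing branch, ranged from 37.4 to 41.9 CPM (Sham), from 45.7 to 59.5 CPM (MI) and from 46.1 to 49.4 CPM (iCarP+/Light+). It was 1.32-fold higher in MI than in Sham (log2 fold change 0.41 ± 0.0957 (SE), adjusted p = 0.00233 in edgeR), and its log2 difference between iCarP+/Light+ and MI was -0.13 ± 0.0953 (SE, adjusted p = 0.46). Against Sham it was 1.21-fold higher in treated rats (0.28 ± 0.0959, adjusted p = 0.0204), a call that was lost without Sham rat 1 (adjusted p = 0.0575) or Sham rat 5 (0.0572). Mlx overlaps Psmc3ip on the other strand, to which 1360 reads were assigned over the 12 rats, and the strand setting of the counting is not given in the sources used here. Mga, a Max partner of mixed function, and Mlxip, the partner of Mlx, were called in none of the 3 comparisons by edgeR, DESeq2 or limma-voom, and neither passed an unadjusted p of 0.05 in edgeR. Mga averaged 36.6 ± 4.40, 27.5 ± 11.3 and 40.2 ± 10.3 CPM (SD, n = 4) and Mlxip 31.5 ± 3.89, 24.8 ± 11.6 and 28.9 ± 4.51 CPM (SD, n = 4) in Sham, MI and iCarP+/Light+ rats. Mxd3 and Mlxipl were not analysed here.

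**Figure D2:**
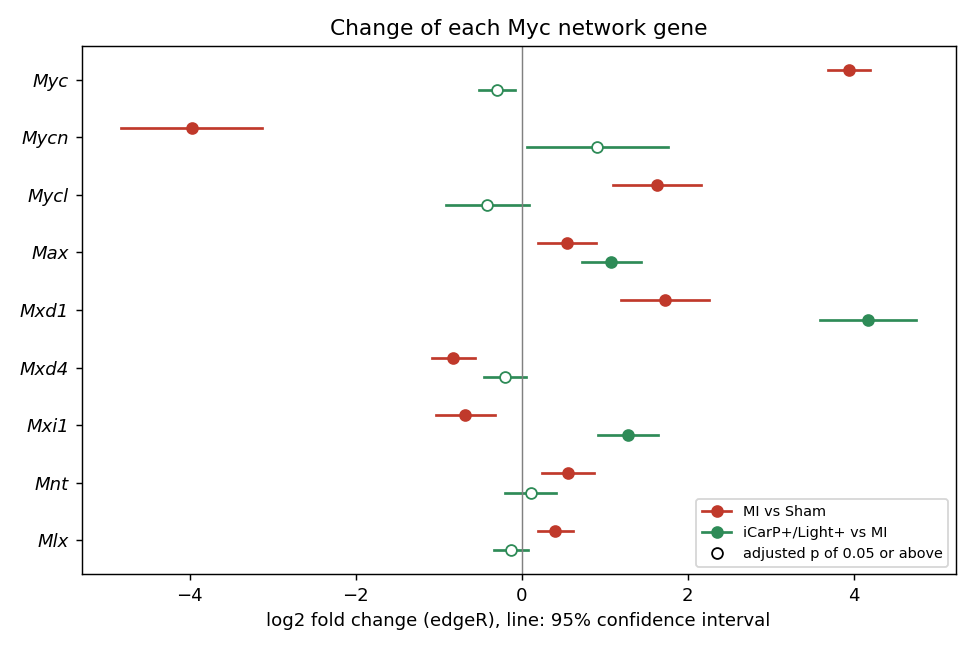
Log2 fold change of each of the 9 genes in edgeR for MI against Sham (red) and iCarP+/Light+ against MI (green), with 95% confidence intervals and open points where the adjusted p was 0.05 or above. All 9 red points are filled, from -3.98 for Mycn to 3.94 for Myc, and the 3 filled green points are Mxd1 at 4.17, Mxi1 at 1.28 and Max at 1.08.

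Levels of different genes were compared per kilobase of the listed gene length (CPM per kb). In Sham the order began with Mxd4 at 51.1 ± 1.85, Max at 32.6 ± 2.89, Mxi1 at 23.7 ± 1.36 and Mlx at 20.5 ± 1.20 CPM per kb (SD, n = 4), with no overlap between these neighbours over the rats. Myc was next to last at 2.54 ± 0.0891 CPM per kb, above only Mycl. The range of Mycn overlapped that of Mnt, although Mycn was above Mnt within each of the 4 Sham rats, and the order of Mnt and Mxd1 was not resolved, with Mnt above in 2 of 4. In MI, Max led at 47.6 ± 7.94 CPM per kb and was above Myc, at 39.0 ± 2.79 CPM per kb, within each of the 4 rats, although their ranges overlapped, while Mycn was last at 0.450 ± 0.287 CPM per kb. In iCarP+/Light+ rats Mxd1 led at 270.1 ± 96.4 CPM per kb, followed without overlap by Max at 100.4 ± 21.6 CPM per kb, and the next level, of Mxi1 at 35.8 ± 9.01, overlapped that of Myc at 31.7 ± 3.63 CPM per kb and was above it in 3 of 4 rats. Thus the most abundant gene of the network was Mxd4 in Sham, Max in MI and Mxd1 in treated rats.

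Activators and repressors were then set against each other within each library, as the sum of Myc, Mycn and Mycl over the sum of Mxd1, Mxd4, Mxi1 and Mnt in CPM per kb. This ratio does not depend on how libraries are scaled, and as a score over chosen genes it is described without a test. It was 0.131, 0.105, 0.116 and 0.139 in the 4 Sham rats. It was 0.688, 0.655, 0.610 and 0.582 in the 4 MI rats. It was 0.192, 0.0857, 0.0883 and 0.0837 in the 4 iCarP+/Light+ rats. Repressor mRNA exceeded activator mRNA in every rat, the MI rats came closest to balance, and the treated rats lay on both sides of the Sham range. On the log2 scale the means were -3.04 ± 0.179, -0.66 ± 0.108 and -3.25 ± 0.58 (SD, n = 4) in Sham, MI and iCarP+/Light+ rats.

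No treated rat lay inside the Sham range. The mean log2 ratio of treated rats was -0.22 relative to Sham with all 4 rats and -0.51 without rat 1. The ratios of Sham and treated rats were made of different parts. The activator sum was 10.3 ± 1.33, 41.6 ± 2.93 and 34.2 ± 3.58 CPM per kb (SD, n = 4) in Sham, MI and iCarP+/Light+ rats, and the repressor sum was 84.1 ± 1.43, 65.6 ± 1.85 and 338.6 ± 104 CPM per kb. All 4 treated rats had an activator sum between those of the Sham and the MI rats, and a repressor sum above that of every Sham and MI rat. The share of Myc in the activator sum was 25.0% ± 3.69 (Sham), 93.8% ± 0.556 (MI) and 92.9% ± 1.03 (iCarP+/Light+), each as mean and SD of 4 rats. Mxd1 made up 5.41% ± 0.472, 23.0% ± 4.41 and 78.6% ± 5.27 of the repressor sum. With Myc alone in place of the 3 activators, the mean log2 ratio of treated rats was above that of Sham by 1.69, not below it, so the side of Sham on which the mean of treated rats fell depended on counting Mycn and Mycl. The summed level of these 7 partners was 2.91 ± 0.228, 2.30 ± 0.389 and 3.67 ± 0.316 times that of Max (SD, n = 4) in Sham, MI and iCarP+/Light+ rats.

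**Figure D3:**
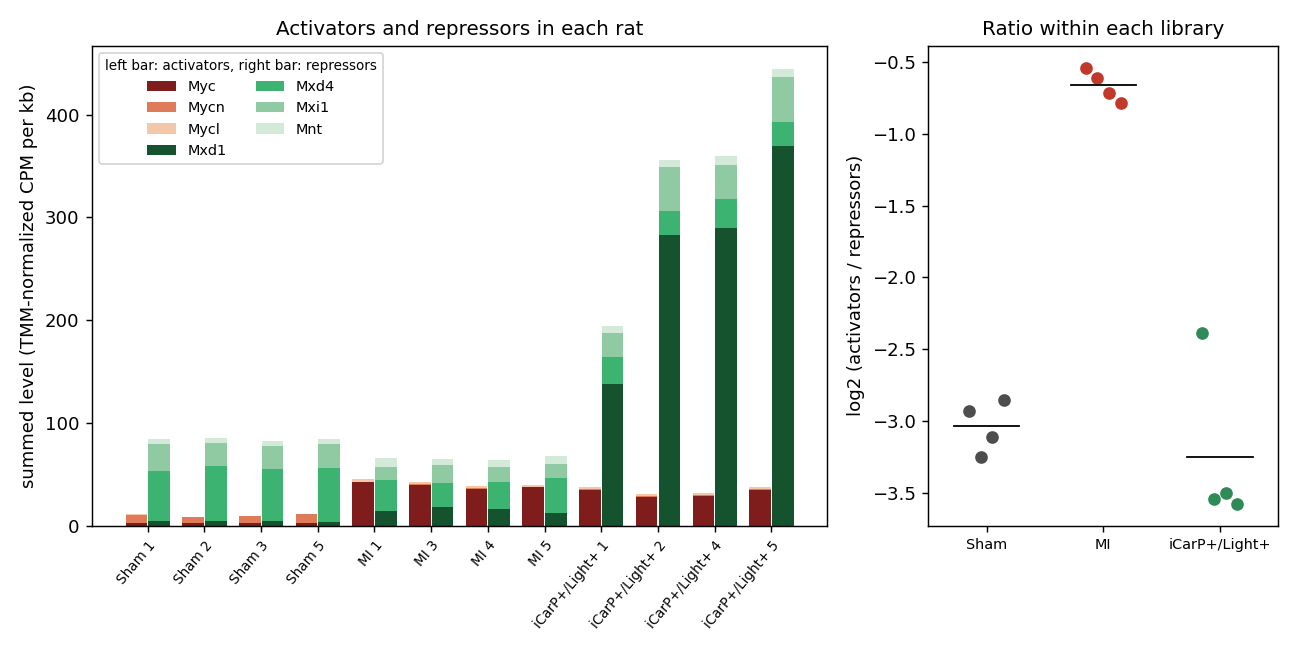
Left, summed level of activators and of repressors in each rat (TMM-normalized CPM per kb, stacked bars coloured by gene); right, log2 of the activator sum over the repressor sum, with a point per rat and a line at the mean of 4. Mxd1 takes 71% to 83.1% of the repressor bar in treated rats, and the MI points lie at -0.78 to -0.54, above all Sham and treated points.

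Genes induced by Myc, a list of nucleolar, nucleotide synthesis and growth genes drawn up with earlier results of these data known, were mostly higher after infarction. Of 49 tested, 37 were called higher and 3 lower in MI against Sham, beside 30.2% and 33.6% of all genes, with a median log2 fold change of 1.24 beside -0.06 for all genes. Fbl, the methyltransferase fibrillarin of the nucleolus, was at 19.4 ± 4.60 CPM in Sham and 87.7 ± 13.9 CPM in MI rats (SD, n = 4) and rose by 2.17 ± 0.182 (log2, SE; adjusted p = 5.53e-07 in edgeR). Rrp12, a factor of ribosome export, rose by 1.97 ± 0.163 (adjusted p = 5.15e-07). The transferrin receptor Tfrc and the mitochondrial transcription factor Tfb2m had the lowest log2 fold changes, -1.26 and -1.20 (adjusted p = 0.000257 and 1.28e-05 in edgeR).

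Between iCarP+/Light+ and MI, 2 of the 49 were called higher and 0 lower, beside 11.6% and 2.01% of all genes, with a median of -0.15. The 2 were the glycolytic enzymes hexokinase 2 (Hk2, log2 fold change 1.17, adjusted p = 0.00104) and lactate dehydrogenase A (Ldha, 0.99, adjusted p = 0.00409), which have roles outside the nucleolus. 5 of the 49 were lower at an unadjusted p below 0.05, and DESeq2 called 4 lower, limma-voom 0 and edgeR with total counts alone 28. With total counts alone, 2722 of all 15101 genes were called lower. The count of genes lower in this list thus depended on the scaling of libraries.

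Genes repressed by Myc in textbook accounts did not move one way after infarction. Of 8 tested, 4 were called higher and 3 lower in MI than in Sham, beside 30.2% and 33.6% of all genes, with a median of 0.74. The higher ones include Cebpa, a regulator of myeloid and fat cell differentiation, which rose by 4.45 ± 0.247 (log2, SE; adjusted p = 5.31e-08 in edgeR), and Ndrg1, a stress gene, which rose by 2.56 ± 0.24 (adjusted p = 1.37e-06). The 3 lower genes included Ndrg2, at -3.05 ± 0.295 (adjusted p = 1.72e-06), and the cell cycle inhibitor Cdkn1c, at -1.97 ± 0.315 (adjusted p = 0.000119). In iCarP+/Light+ against MI, 4 of the 8 were called higher and 0 lower, beside 11.6% and 2.01% of all genes, with a median of 1.11 beside 0.01 for all genes. The DNA damage gene Gadd45a was at 52.7 ± 3.76, 49.7 ± 8.77 and 209.0 ± 58.6 CPM and the cell cycle inhibitor Cdkn1a (p21) at 27.1 ± 7.22, 79.5 ± 17.8 and 258.8 ± 67.2 CPM in Sham, MI and treated rats (SD, n = 4). They were higher in treated than in MI rats by 2.07 ± 0.201 and 1.70 ± 0.24 (log2, SE; adjusted p = 2.59e-05 and 0.000375 in edgeR). The other two, Ndrg1 and the inhibitor Cdkn1b (p27), named after their values were seen, had log2 fold changes of 1.36 and 0.96. Beside the 0 lower, 1 gene had an unadjusted p below 0.05, DESeq2 and limma-voom called 0, and edgeR with total counts alone called 1.

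Targets of the Mlx partners MondoA and ChREBP were called in both directions after infarction. Of 9 tested, 2 were called higher in MI than in Sham, the fatty acid synthase Fasn (1.62 ± 0.135 (log2, SE), adjusted p = 5.35e-07 in edgeR) and Klf10 (1.20 ± 0.17, adjusted p = 4.19e-05), and 2 lower, Gpd1 (-1.82) and Arrdc4 (-0.99). Of all genes 30.2% were called higher and 33.6% lower. Scaling by total counts alone gave 5 higher and 1 lower in this list, and 7707 higher and 2776 lower of all 15101 genes. In iCarP+/Light+ against MI, 3 were called higher and 0 lower by any of edgeR, DESeq2 and limma-voom, with 0 lower at an unadjusted p below 0.05 too, beside 11.6% of all genes called higher and 2.01% lower. Scaling by total counts alone gave 2 higher. Pfkfb3, which raises glycolytic flux, was at 131.7 ± 57.8, 107.1 ± 17.4 and 429.8 ± 165.7 CPM (SD, n = 4) and was 4.01-fold higher in treated than in MI rats (adjusted p = 0.00187 in edgeR). Klf10 was 2.13-fold higher (adjusted p = 0.000709). The third was Txnip, named after its values were seen, the best known MondoA target and an inhibitor of glucose uptake, at a log2 fold change of 0.71 (adjusted p = 0.0172 in edgeR). The medians of the list were 0.18 in MI against Sham and 0.44 in iCarP+/Light+ against MI, beside -0.06 and 0.01 for all genes.

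Called coactivators, which Myc recruits to its targets, were higher after infarction, and the gene called lower was a partner of Myc. Of 13 coactivators and partners of Myc, 5 were called higher and 1 lower in MI against Sham, led by the paired ATPases Ruvbl2 (1.20, adjusted p = 2.86e-06 in edgeR) and Ruvbl1 (1.15, adjusted p = 3.66e-06), while the Myc partner Zbtb17 (Miz1) was lower (-0.54, adjusted p = 0.000343). Beside the 30.2% of all genes called higher, the share of 5 in 13 was near the background. The share of 1 in 13 called lower was below the 33.6% of all genes. Scaling by total counts alone gave 9 higher and 0 lower, and 7707 higher and 2776 lower of all 15101 genes. In iCarP+/Light+ against MI 1 of them, Ruvbl2, was called higher (0.56, adjusted p = 0.0072 in edgeR), a share no larger than the 11.6% of all genes. Scaling by total counts alone gave 0 higher and 3 lower, and the count of higher genes was 0 without iCarP+/Light+ rat 5 and 2 without iCarP+/Light+ rat 1 or MI rat 4. None was called lower, beside 2.01% of all genes, with 2 at an unadjusted p below 0.05, 2 in DESeq2 and 0 in limma-voom. The medians of the list in the same order were 0.24 and 0.14.

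The Sin3 complex, through which the Mxd proteins act, had 3 of 13 genes called higher and 2 lower in MI against Sham, which is no more than the 30.2% and 33.6% of all genes. The split depended on the scaling of libraries. It was 11 higher and 0 lower by total counts alone and 5 higher and 0 lower by the size factors of DESeq2. Of all 15101 genes, total counts alone gave 7707 higher and 2776 lower, and those size factors 4907 and 4702. Sap30 and the histone deacetylase Hdac1 were higher (1.05 and 0.90, adjusted p = 0.00351 and 3.73e-06 in edgeR), while Hdac2 and the scaffold Sin3a were lower by small amounts (-0.28 and -0.27, adjusted p = 0.0183 and 0.0352). The count of lower genes was 0 or 1 in 8 of the 12 fits that left out a rat, and 0 without iCarP+/Light+ rat 5, where 5 were higher. In iCarP+/Light+ against MI 0 of the 13 were called by edgeR or limma-voom in either direction. Of all genes, edgeR called 11.6% higher and 2.01% lower. The unadjusted p in edgeR was below 0.05 for 2 higher and 2 lower genes of the complex. DESeq2 called 2 lower and total counts alone 5. The medians of the complex were 0.05 and -0.003.

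Regulators of the stability of the Myc protein, ubiquitin ligases, deubiquitinases, kinases and phosphatase subunits, were called in both directions after infarction. Of 18 tested, 6 were called higher and 6 lower in MI against Sham, near the 30.2% and 33.6% of all genes. Scaling by total counts alone gave 12 higher and 2 lower, and 7707 higher and 2776 lower of all 15101 genes. Cip2a, which shields Myc from a phosphatase, and the mitotic kinase Plk1 were higher (1.93 and 1.92, adjusted p = 4.9e-05 and 0.000656 in edgeR). The muscle ubiquitin ligase Fbxo32 and the deubiquitinase Usp28 were lower (-3.24 and -1.85, adjusted p = 1.96e-05 and 5.66e-08). In iCarP+/Light+ against MI, Usp37 and Spry2 were called higher, both at 0.41 (adjusted p = 0.0396 and 0.0321 in edgeR), a share no larger than the 11.6% of all genes, and none lower by edgeR, DESeq2 or limma-voom, with 0 at an unadjusted p below 0.05. The 2 calls fell to 0 without any one of MI rats 4 and 5 and iCarP+/Light+ rats 2, 4 and 5, and to 1 without any one Sham rat. They were also lost with the size factors of DESeq2 in edgeR (0 higher and 0 lower) and with total counts alone (0 higher and 4 lower). The medians of these regulators were 0.04 and 0.03.

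**Figure D4:**
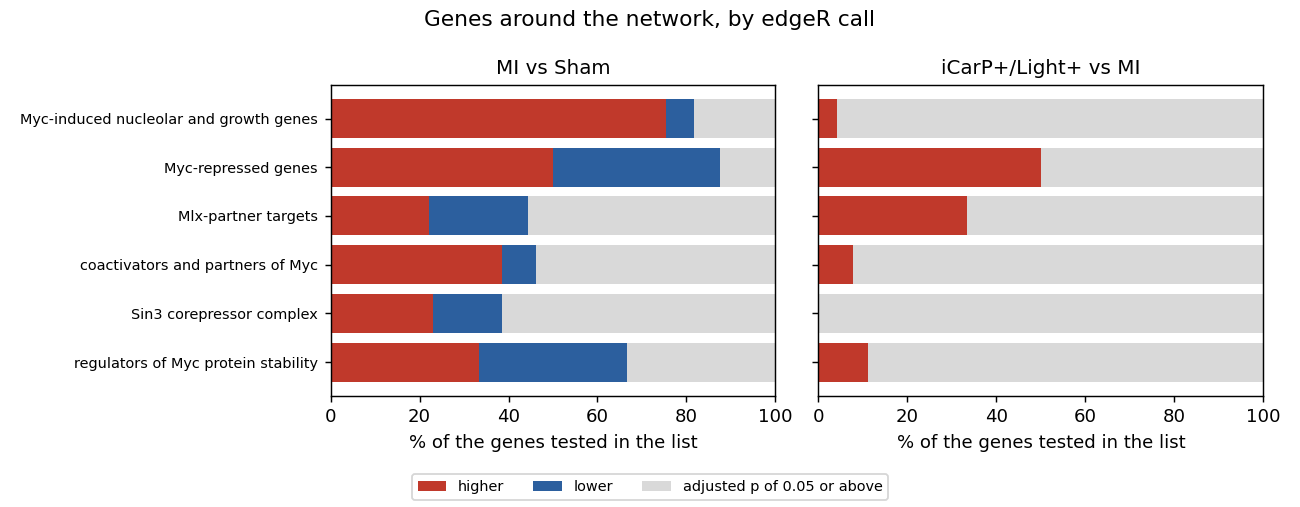
Share of the genes tested in each of 6 lists around the network that were called higher (red), lower (blue) or not called (grey) by edgeR, for MI against Sham (left) and iCarP+/Light+ against MI (right). Of the Myc-induced genes, 37 of 49 are higher on the left and 2 on the right, and no list has a gene called lower on the right.

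The genes most like each member were found by the root-mean-square (RMS) difference over the 12 rats between their log2 CPM, each centred on its own mean, and among 10721 protein-coding genes with a mean of at least 5 CPM. This is a description over rats that share their groups. For Myc, whose own RMS spread was 1.78, the 5 nearest were Pak1 (RMS difference 0.187), Prg4 (0.258), Tbxas1 (0.26), S100a4 (0.261) and Myo1f (0.282). Pak1, a kinase of cell movement, averaged 2.78, 43.3 and 37.9 CPM in Sham, MI and iCarP+/Light+ rats. For Mxd1, whose own spread was 2.46, the nearest were Nfkbiz (0.306) and Nfkbid (0.345), both atypical members of the IκB family, and Nfkbiz averaged 8.33, 37.1 and 429.8 CPM. For Mycn the nearest were the potassium channel subunit Kcnj3 (0.448) and Cidea (0.46), and for Mycl Exosc2 (0.184) and Lrrcc1 (0.194), the latter among 10722 genes. For Max they were Atp6v0b (0.115) and Arap1 (0.119), for Mxi1 Alkbh5 (0.119) and Rb1cc1 (0.151), and for Mxd4 Ick (0.088) and AABR07063281.1 (0.115). For Mnt they were Gatad2a (0.116) and Socs4 (0.131), and for Mlx Cpsf6 (0.073) and Smad2 (0.077), whose own spreads over the rats, 0.339 and 0.191, were small.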

How the data were processed

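RNA-seq of left ventricle from 12 rats was used, 4 per group, grouped by the treatment label. The authors deposited raw read counts per gene, and the submitters' processing notes name HISAT2, featureCounts and build rn6. Versions, annotation release and strand setting are not given in the sources used here. The study's methods name no test for RNA-seq in particular, and give t-tests and analysis of variance as general tests. The software was edgeR 4.0.16 on R 4.3.3, with filterByExpr (minimum count 10), TMM scaling and one quasi-likelihood fit of the 3 group means to all 12 rats. Genes were called at a Benjamini-Hochberg adjusted p below 0.05, over all genes tested. The method was tested on simulated counts in which few genes changed, equally up and down. That test does not cover library scaling where much of the transcriptome changes. Within a group, all 18 pairs of rats differed beyond counting noise (chi-square per gene 14.1 to 114), so no library was a copy of another.

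The members and gene lists were chosen with earlier results of these data known. Named genes were the 9 members, Mga and Mlxip, up to 2 genes with the largest positive and 2 with the largest negative log2 fold change among the called genes of each list with a mean of at least 1 CPM, and the genes most alike (5 for Myc, 2 for each other member). 7 listed symbols were not analysed here. Alternatives were DESeq2 1.42.0, its size factors, total counts alone, limma-voom (limma 3.58.1), 2 other filters, no mitochondrial genes, protein-coding genes only, only the compared groups, a replicate block and each rat left out. Plots were drawn with matplotlib 3.10.9.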

Additional observations from a re-analysis of the deposited data

Results flagged for a closer look

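The log2 ratio of activators to repressors in the iCarP+/Light+ group had 1 rat far from the other three. Rat 1 was at -2.38 and the others were between -3.58 and -3.5, so that the gap was 0.936 of the range of the group, above Dixon's 95% critical value for 4 samples. Chance gives about 1.8 such cases in the 36 groups examined, and this was the only one found. The same rat had the lowest level of Mxd1 among treated rats, 625.2 CPM, and the lowest neutrophil marker sum, 2203 CPM. Their part in its ratio was not tested. Without it the mean log2 ratio of treated rats was -0.51 relative to Sham and -2.88 relative to MI.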

How the results depend on the processing

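Of the log2 fold changes of the 9 members, 318 of 324 values with a rat left out and 256 of 267 under other settings had the same sign and the same call as reported. Scaling by total counts alone moved the median of all genes to 0.52, -0.25 and 0.33 (log2) in MI against Sham, iCarP+/Light+ against MI and iCarP+/Light+ against Sham. It raised the members called between iCarP+/Light+ and MI from 3 to 6, with Myc (-0.57), Mxd4 (-0.47) and Mlx (-0.39) called lower, and left 7 members called between MI and Sham. In iCarP+/Light+ against MI it gave 3926 genes called in place of 2051, 49 genes of the 6 lists in place of 12, and -0.17 for Mnt. The share of calls that were higher went from 47.3%, 85.2% and 50.3% to 73.5%, 30.7% and 64.7%, and for iCarP+/Light+ against MI it was 70.8% with DESeq2 and 72.4% where 10 counts were required of each rat. DESeq2 called 21 genes of the lists in that comparison. Without a rat, Mnt ranged from -0.014 to 0.20 there. Mycn could not be tested with at least 10 counts in every sample. With Myc alone over the 4 repressors, the log2 ratio was 4.30 in MI relative to Sham (2.38 with all activators) and 1.69 in iCarP+/Light+ relative to Sham (-0.22). Adding Mxd3 to the repressors was not run.

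Replicate numbers are shared by different animals, and the samples were analysed as unpaired. The deviations of rats with the same number correlated at -0.15 to 0.065. With 3 shared numbers per comparison, this cannot exclude a batch by number. With the replicate number as a block, 1298 genes were called between iCarP+/Light+ and MI in place of 2051, the 9 members kept their calls except Mlx between iCarP+/Light+ and Sham (0.25, adjusted p = 0.102 in edgeR), and 2 of 18 checks found a rat closest to its own number. Depth limits Mycn most, with 8 counts in 1 MI rat.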
